A study of Mus musculus with 45 samples.

Results

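The endoplasmic reticulum (ER) is where secreted and membrane proteins enter the secretory route, fold and are checked. A set of 43 genes for this machinery was followed in lymphocytes sorted from draining lymph nodes (dLN), out of 55450 genes in the deposited table. Members were taken by symbol from a list of ER chaperones, translocon subunits, ER-associated degradation factors and unfolded protein response (UPR) genes. All 43 symbols were found and all 43 passed the filter on low counts in every comparison. RNA-sequencing covered 45 samples in 8 groups, from S1PR4-/- mice (strain B6.129P2-S1pr4tm1Dgen/J, lacking sphingosine-1-phosphate receptor 4, backcrossed to C57/BL6) and their wildtype (WT) littermates, 8 to 12 weeks old and of both sexes. Every mouse had received 20 µl of an emulsion of incomplete Freund's adjuvant with 50 µg ovalbumin and 5 µg lipopolysaccharide in the hind footpad, so no group was naïve. Germinal center (GC) B cells (B220+ GL7+ Fas+) and non-GC B cells (B220+ GL7- Fas-) were sorted on day 9, and TFH cells (TCRβ+ CD4+ PD1+ CXCR5+) and non-TFH cells (TCRβ+ CD4+ PD1- CXCR5-) on day 6. Groups were of 6 samples, apart from non-GC B cells, of which 5 WT and 4 S1PR4-/- samples were given. The receptor is absent from every cell of the S1PR4-/- mice, not only from the sorted ones, and B cells and T cells also differ in the day of sorting.

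Proteins that are to be secreted are threaded into the ER through the Sec61 channel, cleaved by signal peptidase and given sugar chains by the oligosaccharyltransferase. Chaperones led by BiP (the product of Hspa5) and GRP94 (Hsp90b1) hold them while disulfide isomerases and the lectins calnexin and calreticulin help them to fold, and products that fail are sent back to the cytosol for degradation. When unfolded protein accumulates, the sensors IRE1 (Ern1), PERK (Eif2ak3) and ATF6 start the UPR, which raises transcription of this machinery, while lasting stress raises the transcription factor CHOP (Ddit3). B lineage cells are known for enlarging the ER as they turn into antibody-secreting plasma cells, and helper T cells secrete cytokines through the same route.

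Much of the UPR acts through short promoter elements, so promoters are shown first for members with a match that the results return to. Promoters came from RefSeq (GRCm38.p6) and were found for 34 of the 43 members. The letters searched, on both strands and in the 250 bases before each annotated start, were those of the ER stress element (CCAAT, any 9 bases, CCACG) and of its second form, ERSE-II (ATTGG, 1 base, CCACG). Both contain CCACG. The first was present in 8 of these 34 members, against 0.113% of all 32851 promoters, and the second in Herpud1 alone, against 0.0304% of all promoters. CCACG by itself was in 28.3% of all promoters and in 67.6% of the 34 members. Members were counted by gene, over 36 promoters, and the whole by promoter. The list was drawn to include UPR genes, so higher shares among its members test nothing. In the promoters below, printed 5' to 3' on the strand of the gene, capitals mark these elements, which are matches of letters and not measured binding sites.
Hspa5 (chr2:34771840-34772089, plus strand): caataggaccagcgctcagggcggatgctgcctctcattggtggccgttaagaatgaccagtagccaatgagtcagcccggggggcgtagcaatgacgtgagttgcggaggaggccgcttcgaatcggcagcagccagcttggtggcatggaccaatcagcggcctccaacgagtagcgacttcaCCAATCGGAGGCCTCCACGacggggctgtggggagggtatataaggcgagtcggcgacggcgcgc
Hsp90b1 (chr10:86705445-86705694, minus strand): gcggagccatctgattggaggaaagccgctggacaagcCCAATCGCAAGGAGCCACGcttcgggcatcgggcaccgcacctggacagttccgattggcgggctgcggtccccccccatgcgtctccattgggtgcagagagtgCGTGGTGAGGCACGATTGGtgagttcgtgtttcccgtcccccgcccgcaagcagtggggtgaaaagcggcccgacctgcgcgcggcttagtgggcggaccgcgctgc
Creld2 (chr15:88819396-88819645, plus strand): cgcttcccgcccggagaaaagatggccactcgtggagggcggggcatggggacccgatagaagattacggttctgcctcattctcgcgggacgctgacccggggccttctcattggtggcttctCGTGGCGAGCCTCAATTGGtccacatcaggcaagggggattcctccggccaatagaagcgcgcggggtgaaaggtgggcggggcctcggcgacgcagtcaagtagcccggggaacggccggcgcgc
Herpud1 (chr8:94386179-94386428, plus strand): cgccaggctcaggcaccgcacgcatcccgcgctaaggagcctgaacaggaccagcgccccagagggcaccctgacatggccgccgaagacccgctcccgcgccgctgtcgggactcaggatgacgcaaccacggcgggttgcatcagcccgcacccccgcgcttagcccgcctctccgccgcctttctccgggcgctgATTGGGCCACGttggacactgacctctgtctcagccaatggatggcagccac

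Hsp90b1 carried 2 elements, one in each orientation, and Hspa5 carried 1, which lay 65 to 47 bases before the start. For the other 5 members with the first element only the element is shown, again on the strand of the gene.
Calr (chr8:84847075-84847093): CGTGGTCGACCCTCATTGG
Canx (chr11:50325800-50325818): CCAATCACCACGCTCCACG
Dnajc3 (chr14:118937827-118937845): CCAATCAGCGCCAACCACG
Pdia6 (chr12:17266491-17266509): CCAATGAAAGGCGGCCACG
Syvn1 (chr19:6046532-6046550): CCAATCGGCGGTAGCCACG

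The samples were first checked against their labels. S1pr4 had 505 to 6305 counts in the 23 WT samples and 0 to 40 in the 22 S1PR4-/- samples, and total expected counts ran from 26299429 to 45548215 per sample. The summed level of 7 GC B cell markers was 1243 to 2176 CPM (counts scaled to a common depth on TMM-normalized library sizes) in GC B samples and 125.2 to 182.6 CPM in non-GC B samples, and that of 6 TFH markers was 2451 to 3804 CPM in TFH and 158.8 to 416.4 CPM in non-TFH samples. GC B samples also held transcripts listed as plasma cell markers. The list was Jchain, Mzb1, Sdc1, Tnfrsf17, Prdm1, Derl3, Slamf7, Ighg1, Ighg2b, Ighg2c, Igha and Igkc. Its immunoglobulin genes are not restricted to plasma cells, and Prdm1 and Slamf7 are also used by T cells. Sums over the list therefore do not measure plasma cells alone. The summed level of 12 plasma cell markers ran from 31303 to 68977 CPM in WT and from 11767 to 196134 CPM in S1PR4-/- GC B samples, against 3392 to 6332 CPM in all non-GC B samples, and none of the 12 was at 0 in any GC B sample. In the T cells this sum was 382.9 to 2864 CPM in WT TFH samples and 45.5 to 279.6 CPM in S1PR4-/- TFH samples. It was 15.5 to 245.8 CPM in non-TFH samples, and in S1PR4-/- TFH samples 4 of the 12 markers were at 0 in at least 1 sample. In such bulk samples, fewer cells of a type and less RNA per cell cannot be told apart.

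The 43 members together made up 14056 to 28074 CPM in WT GC B samples (median 17575) and 9726 to 40861 CPM in S1PR4-/- GC B samples (median 16792). Non-GC B samples of both genotypes held 7925 to 9909 CPM, TFH samples 9629 to 12329 CPM and non-TFH samples 7019.6 to 9041 CPM. Both genotypes of TFH cells therefore lay above all non-TFH samples, while 1 S1PR4-/- GC B sample, sample 4, lay within the range of non-GC B cells. Per kilobase of exon, the level that can be compared between genes, Hsp90b1 led in WT GC B cells with a mean of 643.7 CPM per kb and Hspa5 followed with 482.0. In non-GC B cells Hspa5 led with 287.1 CPM per kb in WT, and in TFH cells Pdia3, a disulfide isomerase of the lectin cycle, led with 354.2 ahead of Hspa5 with 330.5. The IRE1 gene Ern1 was the lowest member per length in WT GC B and non-GC B cells, at 1.22 and 0.619 CPM per kb, and Ckap4 the lowest in WT non-TFH cells at 0.366.

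**Figure D1:**
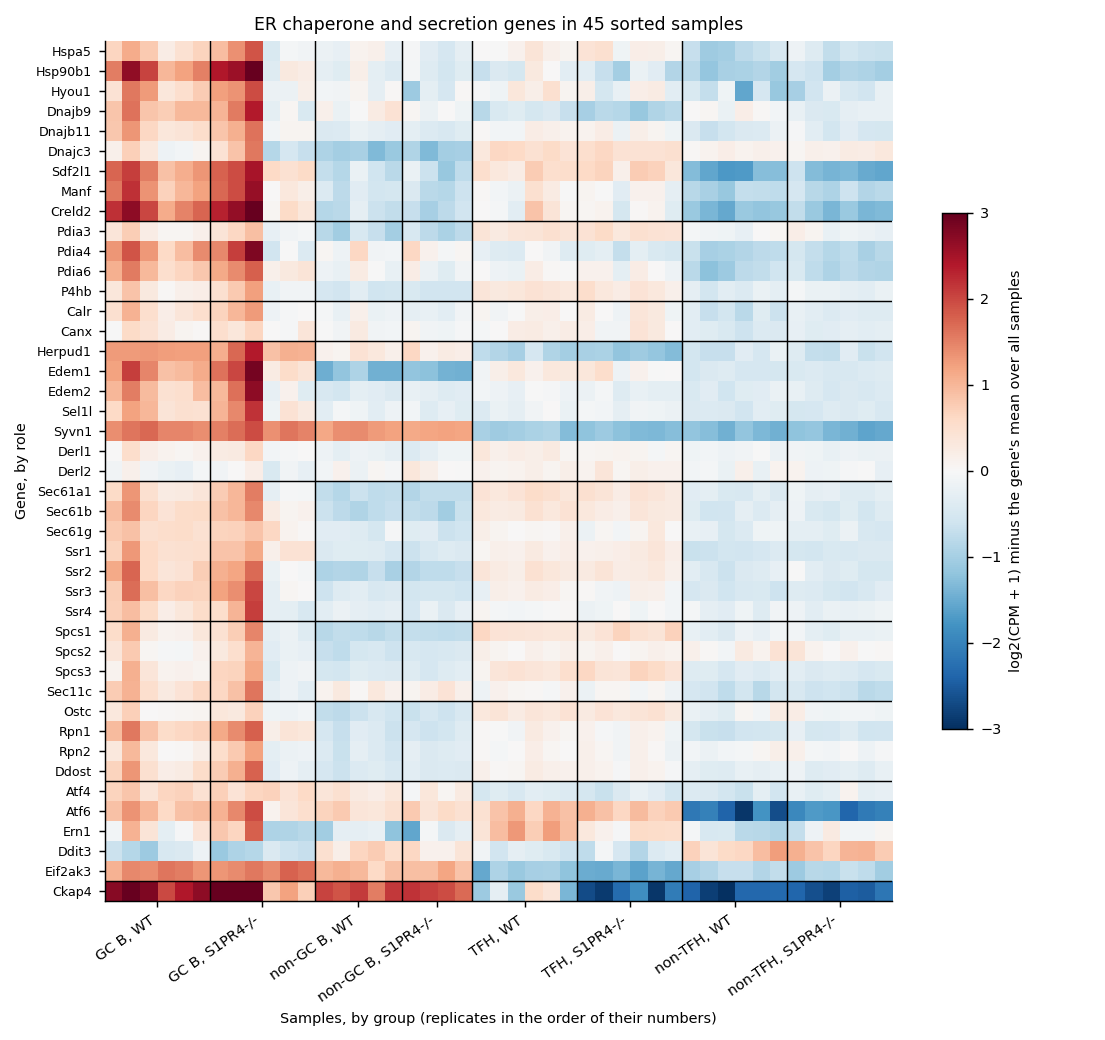
Level of the 43 members (rows, by role) in 45 samples (columns, by group), as log2(CPM + 1) minus the mean of the gene over all samples, with the color scale ending at 3 in both directions. Most rows are red in WT GC B cells and in samples 1 to 3 of S1PR4-/- GC B cells and pale in samples 4 to 6, Syvn1 and Eif2ak3 divide B cells from T cells, and Atf6 is dark blue in non-TFH samples alone.

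Samples of one group were alike in 6 of the 8 groups and unlike in GC B cells. The highest sample exceeded the lowest by a median over the members of 1.24 to 1.3 times in non-GC B, TFH and non-TFH cells of either genotype. In WT GC B cells this ratio was 1.96, and sample 2 held the highest value for 39 of the 43 members. In S1PR4-/- GC B cells it was 3.49, with sample 3 highest for 40 members and sample 4 lowest for 28. The plasma cell marker Sdc1 (syndecan-1) was at 105.3, 127.6, 268.3, 9.61, 19.2 and 11.9 CPM in the 6 S1PR4-/- GC B samples in the order of their numbers. Hsp90b1 was at 4043, 4485, 7900.2, 584.6, 928.7 and 893.0 CPM in these samples, so that the same 3 samples were high for both. In WT GC B cells Sdc1 was at 87.6, 184.5, 75.2, 49.1, 53.7 and 66.4 CPM and was also highest in sample 2. No label assigns these samples to batches.

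The first comparison asked how the ER machinery of GC B cells differed from that of non-GC B cells sorted on the same day from mice of the same genotype. In WT cells 34 members rose and 1 fell at an adjusted p under 0.05 and a fold over 1.5 by edgeR's quasi-likelihood test, while 24.8% of the 13324 genes tested rose and 23.1% fell. The median log2 fold change was 1.05 over the members and 0.00 over all genes tested. All 9 chaperones and co-chaperones, all 4 disulfide isomerases, all 7 translocon genes and all 4 oligosaccharyltransferase genes rose. For 33 of the 43 members, no GC B sample fell within the range of the non-GC B samples. The share of all genes without overlap was not counted, so no excess of members can be read from the 33. An unadjusted p under 0.05 (edgeR) was reached by 42 of the 43 members and by 9330 of the 13324 genes. Ddit3 was the member that fell.

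Among the chaperones, Creld2, a disulfide-handling protein of the ER stress response, was at 190.6 CPM in the lowest, 326.4 at the median and 567.6 in the highest of the WT GC B samples. In the 5 WT non-GC B samples Creld2 was at 48.7, 49.6, 72.7, 56 and 52.9 CPM. The groups stood well apart, and the log2 fold change was 2.69 (SE, the standard error, 0.26, adjusted p = 1.39e-06, edgeR). GRP94, encoded by Hsp90b1 and required for surface expression of integrins and Toll-like receptors, ran from 1507 through a median of 2189 to 4834 CPM in GC B samples. Its non-GC B values were 631.6, 586.9, 851.8, 619.6 and 573.2 CPM. The lowest GC B sample was thus above every non-GC B sample, and the log2 fold change was 2.06 (SE 0.28, adjusted p = 3.02e-05, edgeR). Sdf2l1, a BiP cochaperone, ran from 136.2 to 310.8 CPM (median 199.5) in GC B samples and was at 44.6, 40, 63.5, 47.8 and 41.4 CPM in non-GC B samples. Manf, a secreted ER stress protein, ran from 132.5 to 379.0 CPM (median 199.6) against 61.1, 47.3, 64.3, 55.5 and 56.5 CPM. Neither gene overlapped between the populations, and their log2 fold changes were 2.20 (SE 0.22) and 2.02 (SE 0.24). The log2 fold change of BiP was lower than these. Hspa5 ran from 1491 to 2767 CPM (median 2016) in GC B samples and was at 1127, 1079, 1373, 1412 and 1079 CPM in non-GC B samples. The gap between the groups was narrow, and the log2 fold change was 0.81 (SE 0.15, adjusted p = 3.98e-04, edgeR). The other 4 chaperone genes, Hyou1, Dnajb9, Dnajb11 and Dnajc3, had log2 fold changes between 0.99 and 1.35.

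Genes of entry into the ER and of glycosylation rose as well, all 7 of the translocon and all 4 of the oligosaccharyltransferase. Ssr2, a subunit of the translocon-associated protein complex, was at 175.3 CPM in the lowest GC B sample, 216.6 at the median and 458.5 in the highest. Its values in non-GC B samples were 70.8, 73.5, 71.7, 83.6 and 68.7 CPM, all below every GC B sample, and the log2 fold change was 1.88 (SE 0.23). Sec61b, the beta subunit of the channel, ran from 88.7 to 179.5 CPM (median 102.8) against 42.5, 38.4, 35.1, 39.3 and 41.3 CPM. This was a log2 fold change of 1.64 (SE 0.17, adjusted p = 2.80e-06, edgeR), again without overlap. Rpn1, a ribophorin of the oligosaccharyltransferase, ran from 528.7 to 1071 CPM (median 611.2), and non-GC B samples held 250.5, 222.2, 282.4, 270.9 and 229.5 CPM. The groups were apart, and the log2 fold change was 1.5 (SE 0.18). Ssr4, another subunit of the translocon-associated complex, had the lowest log2 fold change of the 7 translocon genes. It was at 110.3, 128.7, 99.2, 76.8, 85.2 and 98.4 CPM in GC B and 53.2, 58.5, 55.6, 53 and 55.7 CPM in non-GC B samples, a log2 fold change of 0.92 (SE 0.12). Of the 4 signal peptidase genes, Spcs1, Spcs2 and Spcs3 rose, and Sec11c, a catalytic subunit, stayed under the fold threshold with a log2 fold change of 0.51 (SE 0.13).

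ER-associated degradation was divided. Edem1, a lectin that hands misfolded glycoproteins to degradation, was at 860.2 CPM in the lowest GC B sample, 1048 at the median and 1972 in the highest. The non-GC B samples held 168.3, 205.4, 246.2, 172.5 and 171.2 CPM. With a log2 fold change of 2.69 (SE 0.22, adjusted p = 4.43e-07, edgeR), Edem1 and Creld2 had the largest increases of the 43. Herpud1, which carries the ERSE-II letters shown above, varied little, its highest WT GC B sample being 1.04 times its lowest. It was at 597.8, 605.8, 609.7, 590.2, 585.9 and 586.2 CPM in the WT GC B samples and at 269.4, 264.3, 333.2, 307.9 and 277.4 CPM in non-GC B samples, a log2 fold change of 1.10 (SE 0.07, adjusted p = 7.73e-08, edgeR). WT sample 2, the highest in Sdc1, was not the highest for Herpud1, nor was it for Syvn1, Eif2ak3 and Ddit3. Edem2 and Sel1l rose, while Derl1 (0.47), Syvn1 (0.28) and Derl2 (-0.01) did not pass the fold threshold on the log2 scale. Syvn1, the ubiquitin ligase HRD1, has the ER stress element in its promoter, and the log2 fold changes of the 8 members with the element ran from 0.28 for Syvn1 to 2.69 for Creld2.

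**Figure D2:**
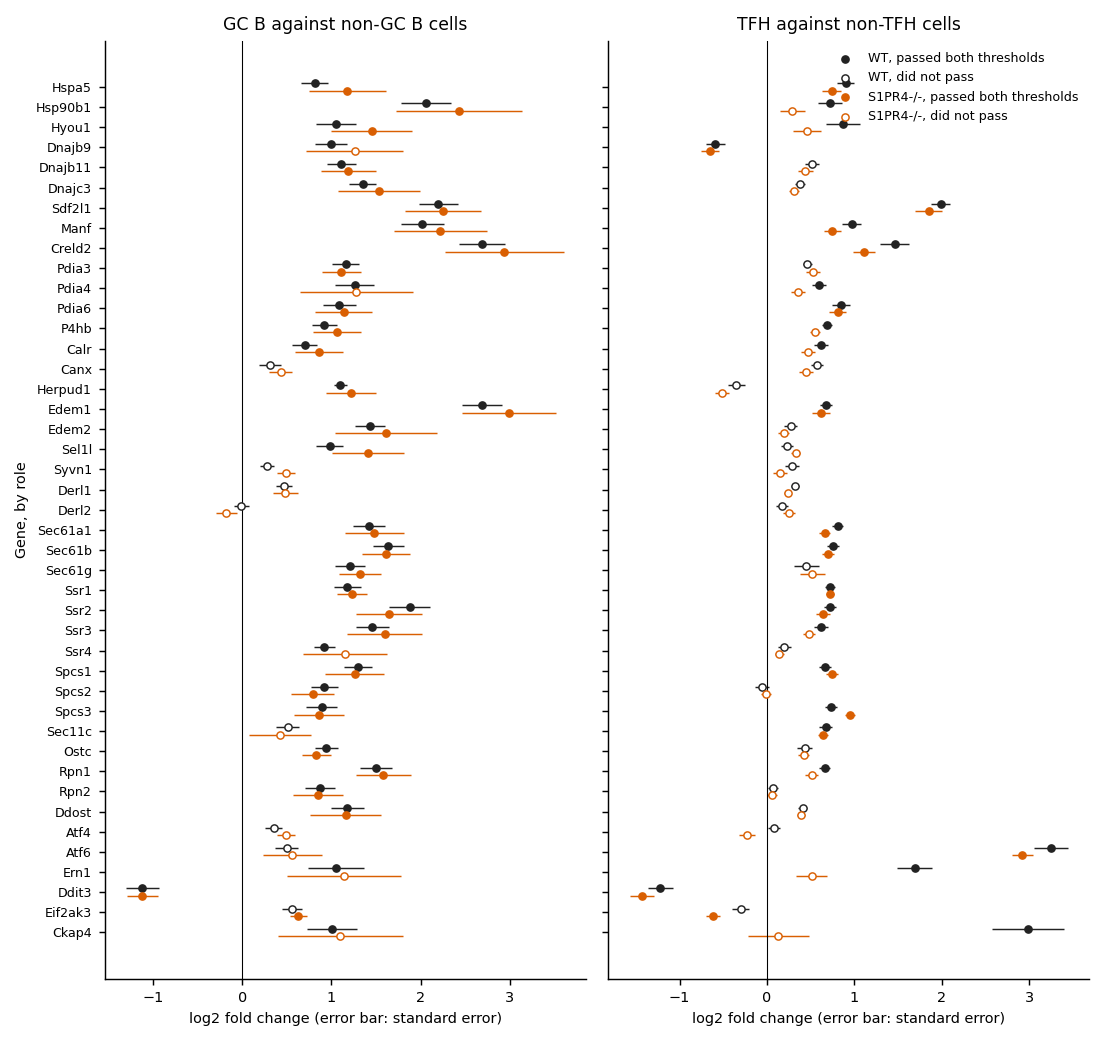
Log2 fold change of each member in GC B over non-GC B cells (left) and in TFH over non-TFH cells (right), in WT (black) and S1PR4-/- cells (orange). Points are fitted values with standard errors, filled where both thresholds were passed; in B cells nearly all points lie right of 0 with longer error bars in S1PR4-/- cells, and in T cells Atf6 at 3.25 and 2.92 stands farthest from 0 in WT and S1PR4-/- cells.

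Of the 5 UPR sensors and transcription factors 1 rose and 1 fell in WT GC B cells, with a median log2 fold change of 0.50. In WT GC B cells Ern1 rose from 3.27, 6.33, 6.3, 6.6 and 2.81 CPM in the non-GC B samples to between 6.18 and 17.3 CPM (median 9.09), with overlap between the groups and a log2 fold change of 1.05 (SE 0.31, adjusted p = 0.0101, edgeR). Atf4, the transcription factor of the PERK branch, ran from 100.1 to 136.5 CPM (median 121.3) and from 88.1 to 108.1 CPM in non-GC B samples (98.6, 108.1, 92.5, 88.1 and 98.2 CPM). Its log2 fold change of 0.35 (SE 0.09) did not reach the fold threshold, nor did those of Atf6 (0.50, SE 0.13) and Eif2ak3 (0.56, SE 0.11). Ddit3, encoding CHOP, was the exception in direction. It was at 22.1, 17.7, 25, 27 and 22.3 CPM in non-GC B samples and at 9.55, 8.07, 6.73, 10.8, 11.1 and 13.9 CPM in GC B samples, without overlap. The log2 fold change was -1.12 (SE 0.18, adjusted p = 9.39e-05, edgeR). A second row of the table carries the symbol Ddit3 with at most 4.08 counts in a sample and was not used. Ckap4, a membrane protein of ER sheets, ran from 47.5 to 177.4 CPM (median 78.7) in GC B samples against 48.6, 44, 51.4, 34.8 and 51.9 CPM, overlapping slightly, with a log2 fold change of 1.01 (SE 0.28).

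In S1PR4-/- mice the same comparison gave 30 members higher and 1 lower in GC B cells, against 25.3% and 22.9% of the 13484 genes tested. The median log2 fold change of the members was 1.18, and that of all genes 0.03. Edem1 was at 1444, 1872, 3418, 554.2, 692.9 and 611.7 CPM in the GC B samples and at 204.6, 200.5, 174.3 and 171.8 CPM in the 4 non-GC B samples. All GC B samples were thus above all non-GC B samples, and the log2 fold change was 2.99 (SE 0.53, adjusted p = 4.29e-04, edgeR). Creld2 behaved alike with 440.4, 557.1, 950.5, 92.5, 132.5 and 111.9 CPM against 53.9, 43.7, 50.3 and 58.7 CPM (log2 fold change 2.94, SE 0.67). Sdf2l1 ran from 101.1 to 410.7 CPM (median 181.4) against 63.7, 46.3, 33.1 and 42.7 CPM, and its log2 fold change was 2.25 (SE 0.43). Ssr2, Ssr3, Sec61b, Rpn1 and Manf also kept every GC B sample above every non-GC B sample, with log2 fold changes of 1.65, 1.60, 1.61, 1.58 and 2.22. Sec61b, for one, was at 124.5, 134.4, 184.5, 79.3, 71.1 and 73.2 CPM against 39.9, 38.2, 31.7 and 41.4 CPM. Hsp90b1 and Hspa5 did overlap. Hspa5 was at 2432, 3307, 4740.4, 932.7, 1220.0 and 1179.9 CPM in GC B samples, the last 3 of which lay in or near the non-GC B range of 1244, 1013, 902.1 and 1056 CPM. Ssr4 (log2 fold change 1.15, SE 0.47), Ern1 (1.14, SE 0.64) and Ckap4 (1.10, SE 0.70) did not pass the test in S1PR4-/- cells. Ddit3 was again the member that fell, at 6.62, 7.63, 8.11, 11.2, 9.75 and 9.25 CPM against 24.5, 17.1, 17.2 and 20.5 CPM (log2 fold change -1.12, SE 0.17). Eif2ak3, the gene for PERK, passed both thresholds here with a log2 fold change of 0.63 (SE 0.10).

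Plasma cell markers moved with these results, and their part in them was not tested apart from the values that follow. All 12 rose in WT GC B cells, with a median log2 fold change of 4.38, and 11 of 12 did in S1PR4-/- GC B cells (median 4.46). Of the 8 myeloid markers tested 5 rose in either genotype (medians 1.67 and 2.14), their summed level being 115.7 to 329.3 CPM in all GC B and 10.6 to 62.7 CPM in all non-GC B samples. Of the 12 B cell markers 10 fell in WT and 9 in S1PR4-/- GC B cells. The part of myeloid cells was not tested. Without WT sample 2, whose Sdc1 exceeded 100 CPM, 33 members still rose and 1 fell, with a median of 0.86. Without S1PR4-/- samples 1, 2 and 3, which exceeded the same level, 13 members rose and 2 fell, with a median of 0.44, and 14 of these 15 calls had the direction seen with all samples. Members that remained higher were Edem1 (log2 fold change 1.79), Sdf2l1 (1.28), Creld2 (1.19), Sec61b (1.05), Sec61g (1.04), Manf (0.92), Ssr1 (0.91), Rpn1 (0.89), Ssr2 (0.77), Herpud1 (0.76), Sec61a1 (0.73), Eif2ak3 (0.72) and Pdia3 (0.67). Ddit3 remained lower (-0.91). Ckap4 changed direction, from 1.10 with all samples to -1.02 without these 3. A fit with a score of 4 plasma cell markers (Jchain, Sdc1, Tnfrsf17 and Prdm1) as covariate left 1 call in WT cells, Herpud1 at 0.88. The same fit in S1PR4-/- cells gave 1 member higher and 17 lower. The mean log2(CPM + 1) of the 4 markers was 5.65 to 7.11 in WT GC B and 2.09 to 3.61 in WT non-GC B samples, and 4.38 to 8.05 against 2.79 to 3.10 in S1PR4-/- samples. Marker levels thus did not overlap in either genotype, and population and marker level cannot be told apart by this fit, its 17 lower calls included. For the fits with samples left out or with this score, the shares of all genes that passed are not given. Their counts of members cannot be set against such shares.

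**Figure D3:**
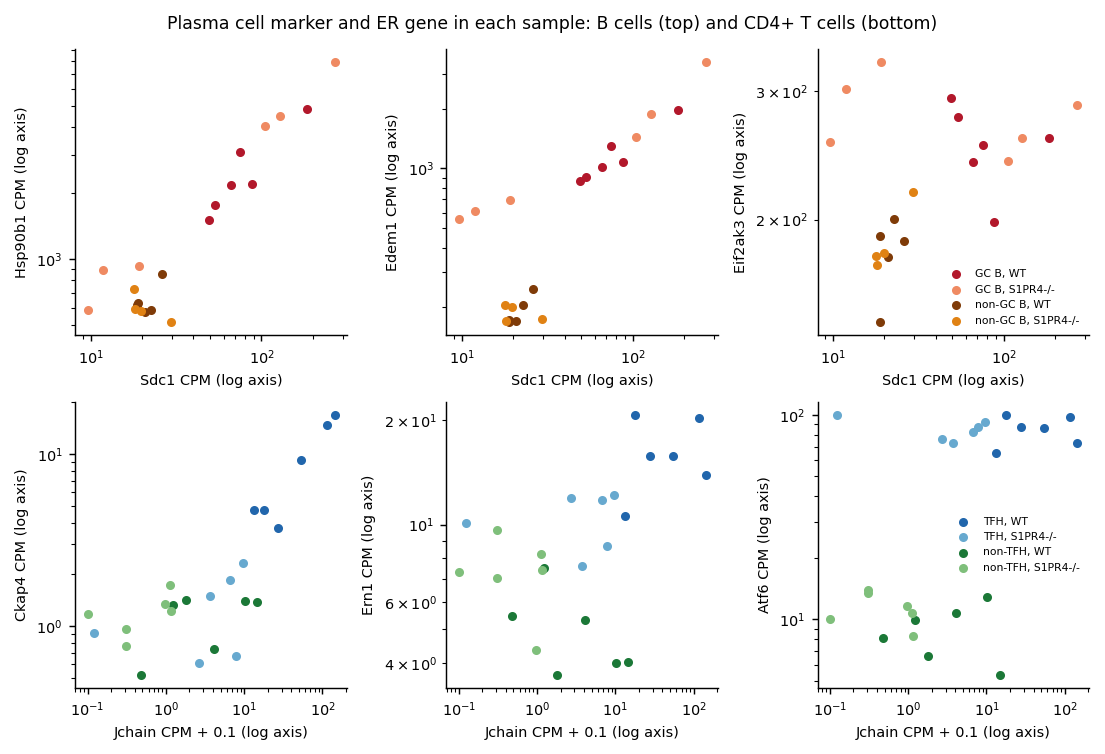
Level of a plasma cell marker (x axis, CPM, log axis) against that of an ER gene (y axis, CPM, log axis) in each sample, for Sdc1 in B cells (top) and Jchain with 0.1 added in CD4+ T cells (bottom). Hsp90b1 and Edem1 climb with Sdc1 among GC B samples. Edem1 is at 554.2 CPM or more in GC B samples, including those with Sdc1 as low as in non-GC B cells. The score of 4 plasma cell markers did not overlap in S1PR4-/- samples (4.38 to 8.05 in GC B and 2.79 to 3.10 in non-GC B). Ckap4 climbs with Jchain among TFH samples, and Atf6 is higher in every TFH than in every non-TFH sample. Within each genotype the score of 4 markers did not overlap between TFH and non-TFH samples. It was 2.47 to 4.11 against 1.19 to 2.22 in WT, and 1.69 to 2.67 against 0.99 to 1.57 in S1PR4-/- samples.

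The corresponding comparison in CD4+ T cells asked how TFH differed from non-TFH cells. In WT mice 23 members rose and 2 fell, against 22.8% and 20.4% of the 13481 genes tested, with a median log2 fold change of 0.62 over the members and 0.00 over all genes. In 32 members the samples did not overlap between TFH and non-TFH cells. The share of all genes without overlap was not counted, so no excess of members can be read from the 32. In S1PR4-/- mice 14 members rose and 3 fell, against 22.3% and 21.1% of the 13390 genes tested, and the medians were 0.46 and 0.01. With no limit on the fold change, 36 members were higher and 4 lower in WT at an adjusted p under 0.05 (edgeR). In S1PR4-/- cells 33 were higher and 5 lower. Shares of all genes at that limit are not given. An unadjusted p under 0.05 (edgeR) was reached by most genes, 9602 of the 13481 in WT and 9777 of the 13390 in S1PR4-/- cells. Of the 43 members, 40 in WT and 38 in S1PR4-/- cells reached that unadjusted limit.

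Markers of other cells moved with the TFH population. Plasma cell markers rose in 9 of 10 tested in WT (median log2 fold change 3.52) and in 8 of 8 in S1PR4-/- TFH cells (2.81). B cell markers rose in 11 of 12 in WT (2.81) and in 6 of 9 in S1PR4-/- cells (2.84), their summed level being 159.0 to 488.4 CPM in all TFH and 61.6 to 107.8 CPM in all non-TFH samples. Myeloid markers rose in 5 of 8 in WT (1.84) and in 7 of 8 in S1PR4-/- cells (3.21), with sums of 27.4 to 462.6 CPM in TFH and 10.5 to 45.9 CPM in non-TFH samples. With the B cell score as covariate, 23 members rose and 2 fell in WT, and 19 rose and 3 fell in S1PR4-/- cells. The planned plasma cell score as covariate left 18 higher and 3 lower in WT, and 15 higher and 3 lower in S1PR4-/- cells. The mean log2(CPM + 1) of the 4 plasma cell markers was 2.47 to 4.11 in WT TFH and 1.19 to 2.22 in WT non-TFH samples. In S1PR4-/- samples it was 1.69 to 2.67 against 0.99 to 1.57. Like the B cell sums, these levels did not overlap, so fits with marker scores cannot tell population from marker level. Shares of all genes that passed in these fits are not given. The part of myeloid cells in these results was not tested.

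Atf6, the ER-tethered transcription factor that is cleaved in the Golgi upon stress (ENSMUSG00000026663.6, chromosome 1 from 170704674 to 170867771, mm10), changed most. It was at 64.8 CPM in the lowest, 87.0 at the median and 100.2 in the highest WT TFH sample, and at 5.37, 9.02 and 12.9 CPM in the same order in WT non-TFH samples. In S1PR4-/- mice Atf6 ran from 73.2 through 85.0 to 99.8 CPM in TFH and from 8.3 through 11.2 to 13.9 CPM in non-TFH samples. The 2 populations were far apart in both genotypes. Its log2 fold changes were 3.25 (SE 0.19, adjusted p = 2.06e-09, edgeR) in WT and 2.92 (SE 0.12, adjusted p = 2.64e-10, edgeR) in S1PR4-/- cells. Non-TFH cells were the low group, since Atf6 was between 50.5 and 186.7 CPM in all B cell samples. With the score of 4 plasma cell markers as covariate the WT value was 3.15, in a fit that cannot tell population from marker level.

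Sdf2l1 was the chaperone with the largest increase in TFH cells. It ran from 85.3 to 125.2 CPM (median 104.9) in WT TFH and from 21.7 to 29.6 CPM (median 26.6) in WT non-TFH samples. S1PR4-/- TFH samples held 81.4 to 124.8 CPM (median 114.4) and non-TFH samples 24.2 to 47.0 CPM (median 27.8). Neither genotype showed overlap, and the log2 fold changes were 1.99 (SE 0.11, adjusted p = 1.19e-09, edgeR) and 1.85 (SE 0.15). Creld2 ran from 70.4 to 159.9 CPM (median 90.5) against 29.7 to 40.3 CPM (median 38.9) in WT, a log2 fold change of 1.46 (SE 0.17). In S1PR4-/- cells Creld2 ran from 60.8 to 95 CPM (median 91.1) against 33.5 to 52.1 CPM (median 37.2), again apart, a log2 fold change of 1.11 (SE 0.13). Manf rose by 0.97 (SE 0.11) and 0.75 (SE 0.10) on the log2 scale. Its WT values were 72.8 to 115.9 CPM (median 83.1) in TFH and 37.0 to 49.6 CPM (median 46.8) in non-TFH cells, again apart. Hspa5 ran from 1258 to 1676 CPM (median 1374) in WT TFH and from 611.2 to 913.2 CPM (median 768.2) in WT non-TFH samples. BiP rose in TFH cells of both genotypes without overlap, with log2 fold changes of 0.90 (SE 0.10) in WT and 0.74 (SE 0.11) in S1PR4-/- TFH cells. Hsp90b1 ran from 466.3 to 929.2 CPM (median 585.7) in WT TFH and from 338.1 to 436.2 CPM (median 391.5) in WT non-TFH samples, a log2 fold change of 0.72 (SE 0.14), and did not pass in S1PR4-/- cells (0.29, SE 0.14).

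The translocon and the signal peptidase rose in TFH cells in most of their subunits. Sec61a1, the pore itself, had a log2 fold change of 0.81 in WT and 0.66 in S1PR4-/- cells. Sec61b ran from 79.0 to 91.5 CPM (median 83.7) in WT TFH and from 43.5 to 55.5 CPM (median 51.0) in WT non-TFH samples, with log2 fold changes of 0.76 (SE 0.07) and 0.70 (SE 0.07) in WT and S1PR4-/- cells. Spcs3, a signal peptidase subunit, was at 313.5 to 392.0 CPM (median 345.6) in S1PR4-/- TFH and 171.1 to 195.2 CPM (median 182.2) in S1PR4-/- non-TFH samples. The 2 sets were apart, with a log2 fold change of 0.95 (SE 0.06, adjusted p = 7.02e-09, edgeR). Spcs1 ran from 144.6 to 188.1 CPM (median 159.3) in S1PR4-/- TFH and from 91.3 to 110.3 CPM (median 100.1) in S1PR4-/- non-TFH samples (log2 fold change 0.74, SE 0.07). The disulfide isomerase Pdia6 ran from 313.0 to 452.3 CPM (median 403.6) against 202.6 to 282.0 CPM (median 216.3), with a log2 fold change of 0.81 (SE 0.10). Neither gene overlapped. In WT TFH cells their log2 fold changes were 0.66 and 0.85. Ssr4 stayed under the fold threshold at 0.20 in WT and 0.14 in S1PR4-/- cells, and Spcs2 at -0.06 and -0.01. Only 1 of the 4 oligosaccharyltransferase genes, Rpn1, passed in WT TFH cells and none in S1PR4-/- TFH cells, where the 4 ranged from 0.06 to 0.51.

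In WT TFH cells 1 of the 7 degradation genes rose and none fell, and of the 5 UPR sensors and factors 2 rose and 1 fell. Herpud1 was lower in WT TFH (120.7 to 173.3 CPM, median 133.2) than in WT non-TFH samples (151.8 to 216.4 CPM, median 171.3), with overlap. Its log2 fold change of -0.35 (SE 0.10, adjusted p = 0.00793, edgeR) missed the fold threshold, as did that of -0.52 in S1PR4-/- cells. Dnajb9, the BiP cochaperone ERdj4, fell in both genotypes. It was at 8.48 to 12.2 CPM (median 11) in WT TFH and 13.8 to 18.3 CPM (median 16.2) in WT non-TFH samples, and the log2 fold changes were -0.59 in WT and -0.65 in S1PR4-/- cells. Edem1 was the degradation gene that rose, by 0.68 in WT and 0.62 in S1PR4-/- cells. Ddit3 ran from 9.77 to 14.3 CPM (median 11.5) in WT TFH and from 20.6 to 38.1 CPM (median 24.9) in WT non-TFH samples. It did not overlap in either genotype, and fell by 1.22 (SE 0.14) on the log2 scale in WT and by 1.43 (SE 0.14) in S1PR4-/- TFH cells, a direction shared with GC B cells. Atf4 did not pass in either genotype (0.08 and -0.23), and Eif2ak3 fell in S1PR4-/- cells (-0.62) without reaching the fold threshold in WT (-0.30).

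Ern1 and Ckap4 passed in WT and not in S1PR4-/- TFH cells, and the difference between genotypes had an adjusted p = 0.11 for Ern1 and 0.0653 for Ckap4 in the interaction (edgeR). Ern1 was at 10.6, 15.8, 20.7, 13.9, 20.2 and 15.7 CPM in WT TFH and at 7.5, 5.31, 5.47, 4.02, 4.01 and 3.71 CPM in WT non-TFH samples. The groups were apart and the log2 fold change was 1.69 (SE 0.20, adjusted p = 2.91e-06, edgeR), against 0.51 (SE 0.18) in S1PR4-/- cells. Ckap4 was at 4.72, 9.2, 4.71, 16.9, 14.8 and 3.72 CPM in WT TFH and between 0.524 and 1.42 CPM in WT non-TFH samples. Its log2 fold change was 2.99 (SE 0.41, adjusted p = 1.42e-05, edgeR) in WT and 0.13 (SE 0.35) in S1PR4-/- cells. The plasma cell transcript Jchain was at 13.2, 53.8, 17.8, 143.3, 115.4 and 27.3 CPM in the same WT TFH samples, so the 3 samples highest in Jchain were the 3 highest in Ckap4. Without the WT TFH samples 2, 4 and 5, in which Jchain exceeded 50 CPM, Ckap4 had a log2 fold change of 1.96 (adjusted p = 2.77e-04, edgeR) and Ern1 of 1.65, and 20 members rose and 2 fell. Hsp90b1 was lost as a call there, going from 0.72 to 0.46. With a score of plasma cell markers as covariate, Ckap4 was at 0.90 (adjusted p = 0.233, edgeR) and Ern1 at 1.93 (adjusted p = 0.00198, edgeR). Marker levels did not overlap between TFH and non-TFH samples, so this fit cannot tell population from marker level. The share of all genes that passed without samples 2, 4 and 5 is not given.

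**Figure D4:**
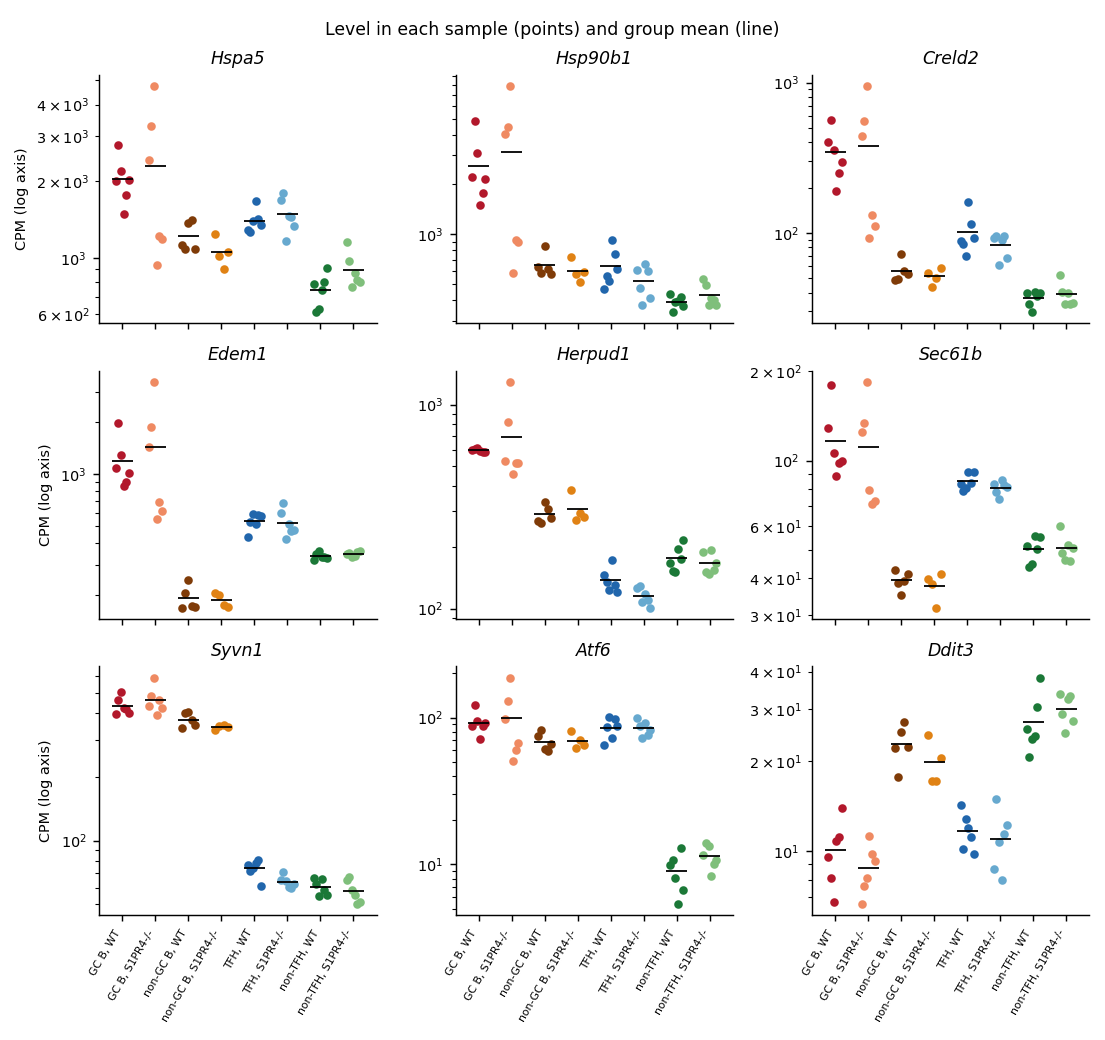
Level of 9 members in each sample (points, CPM, log axis) and the mean of each group (line) over the 8 groups. Hsp90b1, Creld2 and Edem1 are highest and most spread in GC B cells, Herpud1 is lowest in TFH cells, Syvn1 is several times higher in B than in T cells, Atf6 is low in non-TFH cells alone, and Ddit3 is lower in GC B and TFH cells than in their counterparts.

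B and T cells of WT mice were also set against each other, in comparisons that reuse the samples above and differ in the day of sorting. GC B cells had 23 members higher and 1 lower than TFH cells, against 20.1% and 24.2% of the 13719 genes tested, and a median log2 difference of 0.60 (all genes -0.01). Non-GC B cells had 14 higher and 4 lower than non-TFH cells, against 19.7% and 19.1% of the 13669 genes tested, and a median of 0.14 (all genes -0.00). Syvn1 was higher in B cells in both settings, by 2.56 (SE 0.08) and 2.69 (SE 0.08) on the log2 scale. It ran from 397.1 to 503.7 CPM in WT GC B and from 60.9 to 81.3 CPM in WT TFH samples. Eif2ak3 followed the same pattern with 2.55 and 1.80. Ckap4 was 5.40 (SE 0.23) higher in non-GC B than in non-TFH cells and 3.30 (SE 0.43) higher in GC B than in TFH cells. Atf6 was 3.00 (SE 0.20) higher in non-GC B than in non-TFH cells but only 0.13 (SE 0.13) higher in GC B than in TFH cells. Dnajc3, an inhibitor of PERK and BiP cochaperone, was lower in non-GC B than in non-TFH cells by 1.14 on the log2 scale, reported as -1.14 (SE 0.07). None of the 7 translocon genes passed between non-GC B and non-TFH cells, where they ranged from -0.41 to 0.21.

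Whether the step from the non-GC to the GC population differed between lineages was tested as an interaction in WT mice, where a positive value means a larger increase in GC B than in TFH cells. At an adjusted p under 0.05 the step was larger in B cells for 26 members and smaller for 2, against 20.3% and 21.4% of the 15101 genes tested. The median was 0.58 over the members and -0.03 over all genes. All 7 translocon genes and all 4 oligosaccharyltransferase genes were among the 26. Edem1 had an interaction of 1.95 (SE 0.22, adjusted p = 2.46e-07, edgeR) and Herpud1 of 1.39 (SE 0.13, adjusted p = 1.83e-08, edgeR), the latter rising in B cells and lower in TFH cells. The 2 members with a smaller step in B cells were Atf6 (-2.82, SE 0.24, adjusted p = 3.05e-09, edgeR) and Ckap4 (-2.05, SE 0.52). Members whose step did not differ at this threshold included Hspa5 (-0.15, SE 0.18), Sdf2l1 (0.15, SE 0.23) and Ddit3 (0.03, SE 0.24). Without the GC B and TFH samples high in plasma cell markers, the step was larger for 23 members and smaller for 3. The shares of all genes in that fit are not given.

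Loss of S1PR4 was tested within each population, on the S1PR4-/- and WT samples already used above. In GC B cells none of the 43 members passed, against 0.0612% of the 13070 genes tested, and none had an unadjusted p under 0.05; DESeq2 and limma voom also called 0. The members with the lowest p-values were Eif2ak3 (log2 fold change 0.13, SE 0.10), Ddit3 (-0.20, SE 0.17) and Sel1l (0.37, SE 0.35), each with an adjusted p = 0.985 (edgeR). Sel1l, the partner of HRD1 in degradation, ran from 242.7 to 432.1 CPM (median 269.4) in WT and from 169.6 to 841.8 CPM (median 313.1) in S1PR4-/- GC B samples, so the S1PR4-/- samples enclosed the WT range. Hsp90b1 had a log2 fold change of 0.28 with the samples listed above. When the GC B samples with Sdc1 over 100 CPM were left out, 14 members were lower in S1PR4-/- cells and none higher, with a median of -0.54. Among these were Ckap4 (-1.69), Pdia4 (-1.48), Hsp90b1 (-1.44), Creld2 (-1.43) and Hspa5 (-0.79). That choice leaves 5 WT samples with Sdc1 at 49.1 to 87.6 CPM and 3 S1PR4-/- samples at 9.61 to 19.2 CPM, so genotype and plasma cell marker level cannot be told apart in it. The share of all genes that passed with this choice is not given, so the 14 members cannot be set against it. In non-GC B cells no member passed by edgeR, DESeq2 or limma voom, against 0.0537% of the 13038 genes tested, and again none had an unadjusted p under 0.05. Spcs2 (0.14, SE 0.07), Atf4 (-0.17, SE 0.10) and Hyou1 (-0.35, SE 0.19) had the lowest p-values. Spcs2 was at 215.3, 202.7, 240.6, 247.9 and 225.2 CPM in WT and 247.2, 242.6, 247.1 and 255.8 CPM in S1PR4-/- samples, with overlap. Hyou1, a chaperone of the ER lumen, was at 32.7, 32, 36.7, 28.9 and 35.6 CPM in WT and 15.7, 28.3, 24.4 and 35.9 CPM in S1PR4-/- samples, again overlapping.

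In TFH cells 1 member fell in S1PR4-/- mice and none rose, against 0.496% of the 13495 genes tested that changed. It was Ckap4 (ENSMUSG00000046841.5, chromosome 10 from 84526305 to 84534062, mm10), which was at 0.91, 0.673, 1.49, 2.34, 0.615 and 1.86 CPM in S1PR4-/- TFH samples, all below the lowest WT value of 3.72 CPM. The log2 fold change was -2.79 (SE 0.45, adjusted p = 0.0172, edgeR). Plasma cell markers moved the same way: 6 of the 11 tested fell, with a median log2 fold change of -3.64, and Jchain was at most 9.5 CPM in S1PR4-/- TFH samples. Ckap4 did not pass without the 3 WT samples high in Jchain (-1.75, adjusted p = 0.23, edgeR) or with plasma cell markers as covariate (-0.73, adjusted p = 0.677, edgeR). The marker sums of the genotypes did not overlap (382.9 to 2864 CPM in WT and 45.5 to 279.6 CPM in S1PR4-/- TFH samples). The fit with this covariate therefore cannot tell genotype from marker level. Ckap4 also lost the call without S1PR4-/- sample 1 (-2.71) and with the B cell score as covariate, where the log2 fold change was -2.91 (unadjusted p = 1.58e-04, edgeR). In GC B, non-GC B and non-TFH cells its log2 fold change was 0.16, 0.04 and 0.09. S1pr4 also lies on chromosome 10, and whether position plays a part was not tested. Eif2ak3 (-0.39, SE 0.09, adjusted p = 0.0532, edgeR) and Ern1 (-0.64, SE 0.16, adjusted p = 0.0606, edgeR) came next and did not pass. Eif2ak3 was at 32.3, 49.5, 43.5, 47.2, 48.4 and 40.6 CPM in WT and at 33.3, 32.9, 36.5, 30.9, 35.4 and 32 CPM in S1PR4-/- TFH samples, with 1 WT sample in the S1PR4-/- range. DESeq2 called 2 members lower, Ckap4 and Ern1.

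In non-TFH cells no member passed by edgeR, DESeq2 or limma voom, against 0.114% of the 13197 genes tested. An unadjusted p under 0.05 (edgeR) was found for 7 members and for 1486 of the 13197 genes. Dnajb9 was at 13.8 to 18.3 CPM (median 16.2) in WT and 11.3 to 13.6 CPM (median 13.2) in S1PR4-/- samples, the 1 member without overlap (log2 fold change -0.33, SE 0.09, adjusted p = 0.175, edgeR). Atf4 (0.27, SE 0.08) and Ern1 (0.56, SE 0.20) leaned the other way. The genotype effect was then compared between TFH and non-TFH cells. No member passed, against 0.0139% of the 14401 genes tested. An unadjusted p under 0.05 (edgeR) was found for 7 members and for 1325 of the 14401 genes. Limma voom called 0 members and DESeq2 called 2. With the replicate number as a block, edgeR called Ckap4 (-2.84, unadjusted p = 3.67e-05), and it did so without WT TFH sample 6 (-3.03). In the fit without these changes Ckap4 (-2.88, SE 0.55, adjusted p = 0.0653, edgeR), Ern1 (-1.20, SE 0.27, adjusted p = 0.11, edgeR) and Atf4 (-0.32, SE 0.11) had the lowest p-values. Comparing the genotype effect of GC B with that of non-GC B cells, no member passed by any of the 3 tools, none had an unadjusted p under 0.05, and 0% of the 14490 genes tested passed. The lowest p-values belonged to Syvn1 (0.21, SE 0.13), Derl2 (-0.17, SE 0.14) and Sel1l (0.43, SE 0.42). Derl2, a channel component of degradation, ran from 69.8 to 92.1 CPM in WT and from 60.4 to 95.5 CPM in S1PR4-/- GC B samples, and overlapped with non-GC B samples, which held 73.7 to 105.0 CPM.

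**Figure D5:**
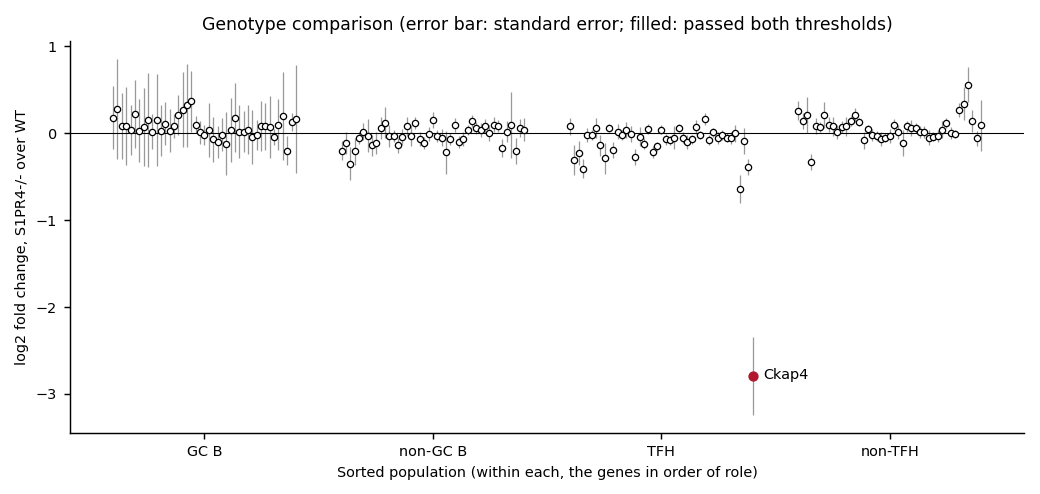
Log2 fold change between S1PR4-/- and WT samples for each member (points, in order of role) in the 4 sorted populations, with standard errors. Ckap4 in TFH cells, at -2.79, is the filled point that passed both thresholds, and error bars are longest in GC B cells.

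A further 73 genes of ER entry, folding, glycosylation, degradation, ER export and stress regulation were counted beside the members. In WT GC B cells 39 of the 72 tested rose and 2 fell, with a median of 0.67, and in S1PR4-/- GC B cells 34 of 73 rose and 2 fell. Of all genes tested, 24.8% rose and 23.1% fell in WT, and 25.3% rose and 22.9% fell in S1PR4-/- GC B cells. In TFH cells 18 of 72 rose and 4 fell in WT, and 14 of 72 rose and 4 fell in S1PR4-/- mice, with medians of 0.19 and 0.18. Of all genes tested, 22.8% rose and 20.4% fell in WT, and 22.3% rose and 21.1% fell in S1PR4-/- TFH cells. The rising genes of the pathway were thus near the share of all genes in TFH cells. Asns, asparagine synthetase and a target of ATF4, had the largest increase in WT cells of both lineages. It ran from 27.1 to 40.2 CPM (median 32.8) in WT GC B samples and from 0.0 to 3.13 CPM in non-GC B samples, a log2 fold change of 4.96 (SE 0.62). In WT TFH samples it ran from 13.7 to 23.5 CPM (median 16.5) against 0.407 to 2.4 CPM in non-TFH samples, a log2 fold change of 3.72 (SE 0.31). Atf4 itself stayed under the fold threshold in both comparisons. Derl3, a degradation factor that was also on the plasma cell list, rose by 4.89 in WT GC B and by 3.32 in WT TFH cells on the log2 scale. The COPII coat gene Sec24d (2.95), the stress regulator Chac1 (3.71) and the transcription factor Creb3l2 (2.33) completed the 5 largest in WT GC B cells, and Pdia5 (2.96), Fkbp11 (1.51) and Ppp1r15a (-1.41) those in WT TFH cells. Pdia5 was at 1.4 CPM or less in every TFH sample. Ppp1r15a, which encodes GADD34 and acts downstream of CHOP, ran from 26.8 to 30.3 CPM in WT TFH and from 58.7 to 97.1 CPM in WT non-TFH samples. Like Ddit3, it was lower in GC B cells too (-1.14, SE 0.09). In S1PR4-/- mice the 5 largest in TFH cells were Asns (3.10), Pdia5 (3.07), Derl3 (2.47), Ppp1r15a (-1.46) and Chac1 (1.22). In S1PR4-/- GC B cells they were Atf3, Asns (7.43), Chac1 (5.47), Derl3 (4.73) and Sec24d (3.07). Atf3 was at 0.222 to 1.18 CPM there and at 0 in all 4 non-GC B samples, where 3 counts would be 0.0659 to 0.114 CPM over the libraries of the series. In the genotype comparisons, Fkbp11 and Derl3 fell in S1PR4-/- TFH cells and no other gene of the 73 passed in any population. These were 2 of the 72 tested there, against 0.496% of all 13495 genes tested. Of the 11 plasma cell markers tested, 6 fell in the same comparison, with a median log2 fold change of -3.64. The part of plasma cells in the fall of Fkbp11 and Derl3 was not tested.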

How the data were processed

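Reads were cleaned by the authors using Cutadapt 2.10, mapped to mm10 by STAR 2.5.3 and, after Picard had marked duplicates, assigned to genes by RSEM 1.3.0. The deposited values are RSEM's expected counts, with no correction for depth or gene length, and 8.83% of them are fractional. RSEM divides reads shared between similar genes, so levels of genes with near copies are uncertain. Libraries were stranded. Gene positions and exon lengths came from GENCODE M21 on mm10, whose symbols match the table, although the methods name release M30, so levels per kilobase rest on M21 exons. Promoters came from RefSeq. The members and all lists were chosen with earlier results of these data known, and support nothing by their choice.

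Expected counts were rounded to whole numbers, filtered with filterByExpr, normalized by TMM and tested with edgeR 4.0.16 (quasi-likelihood) in R 4.3.3. Each fit held the groups compared and had no covariates, and p-values were adjusted over all genes tested by the Benjamini-Hochberg method. Changes needed an adjusted p under 0.05 and a fold over 1.5, interactions an adjusted p under 0.05. Samples are named by their labels. The methods give 6 mice per genotype for sorting, but neither source ties a sample to a mouse, so p-values may measure technical spread in part. DESeq2 1.42.0, limma 3.58.1, other normalizations, no filter, one fit over all groups, a replicate block, covariates and left-out samples were alternatives. The covariate of 4 plasma cell markers and the removal of samples high in Sdc1 or Jchain were chosen after seeing the data.

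Values of the samples are given mainly for the 8 largest non-overlapping changes of members in each population comparison, the 3 lowest p-values in each genotype comparison and interaction, and Hspa5, Hsp90b1, Herpud1, Sec61b, Ssr4, Atf4, Ern1, Ddit3 and Ckap4. From the 73 other pathway genes, the 5 largest changes per population comparison are named. Total counts per sample ran from 26299429 to 45548215, so counting error is small for all members but the lowest.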

Additional observations from a re-analysis of the deposited data

Results flagged for a closer look

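In 216 checks of 27 named members over 8 groups, 16 had a highest or lowest sample set apart from the rest of its group (Dixon's test at 95%), where chance alone gives about 1 in 20. Of these, 5 lay in sample 2 of WT GC B cells, with the next highest sample after each: Ckap4 at 177.4 CPM (84.9), Dnajb9 at 51 (32.2), Rpn1 at 1071 (694.6), Spcs3 at 514.5 (316.2) and Ssr3 at 344.4 (200.4). Another 5 lay in sample 1 of S1PR4-/- non-TFH cells, namely Creld2 at 52.1 CPM (40.4), Pdia6 at 282.0 (227.6), Sdf2l1 at 47 (29), Spcs2 at 449.8 (378.9) and Ssr2 at 135.1 (108.7). That sample held the highest value of its group for 27 of the 43 members.

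The remaining 6 fell in other samples. Ssr4 was at 284.2 CPM (135.7) in sample 3 of S1PR4-/- GC B cells, Hsp90b1 at 851.8 (631.6) in sample 3 of WT non-GC B cells and Eif2ak3 at 218.2 (180.2) in sample 3 of S1PR4-/- non-GC B cells. Spcs1 was at 179.2 CPM (157.0) in sample 1 of WT TFH cells, Derl2 at 107.4 (93.9) in sample 2 of S1PR4-/- TFH cells and Atf4 at 82.6 (65.4) in sample 4 of S1PR4-/- non-TFH cells.

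The step from the non-GC to the GC population differed between B and T cells in WT mice for 3 members named by the lowest p-values of the interaction. These were Atf6 with -2.82 (adjusted p = 3.05e-09, edgeR), Herpud1 with 1.39 (adjusted p = 1.83e-08, edgeR) and Edem1 with 1.95 (adjusted p = 2.46e-07, edgeR).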

How the results depend on the processing

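Counts of members called under each alternative are given against the main count. Shares of all genes under the alternatives are not given, so no excess of members over all genes can be read from these counts. Settings built on plasma cell markers moved the counts most. With the score of 4 markers as covariate, calls went from 35 to 1 in WT GC B against non-GC B cells, from 31 to 18 in S1PR4-/- cells and from 1 to 0 between genotypes in TFH cells. Of the 18, 1 was a call of the main fit in the same direction. The score did not overlap between GC B and non-GC B samples, so the fit cannot tell population from marker level. The part of plasma cells was therefore not tested by it. Leaving out samples high in these markers changed 31 to 15 in S1PR4-/- GC B cells, 0 to 14 between genotypes in GC B cells, 1 to 0 between genotypes in TFH cells and 0 to 7 in the genotype interaction of B cells. The planned plasma cell and B cell scores as covariates also took the 1 call between TFH genotypes, Ckap4, to 0, with log2 fold changes of -0.73 and -2.91 against -2.79, and DESeq2 gave 2 calls there. In the genotype interaction of T cells, DESeq2 gave 2 calls and an adjusted p under 0.1 gave 1, against 0. With no limit on the fold, calls rose from 25 to 40 in WT TFH, from 17 to 38 in S1PR4-/- TFH and from 18 to 29 in non-GC B against non-TFH cells. In the same order, 40, 38 and 29 of the 43 members had an unadjusted p under 0.05 (edgeR). So had 9602 of 13481, 9777 of 13390 and 8408 of 13669 genes. Apart from the left-out samples and the replicate block given next, all other settings stayed within 1.5 times the main count.

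Leaving out 1 sample at a time gave 34 to 36 calls in WT GC B, 25 to 33 in S1PR4-/- GC B, 22 to 26 in WT TFH and 16 to 18 in S1PR4-/- TFH cells. It gave 18 to 26 between GC B and TFH, 17 to 18 between non-GC B and non-TFH cells, 26 to 31 for the lineage interaction, 0 to 2 between TFH genotypes (0 without S1PR4-/- sample 1 and 2 without WT sample 1), 0 to 1 for the genotype interaction of T cells and 0 in the other genotype comparisons.

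Same-numbered samples deviated together with correlations of -0.045 to 0.205 in the population comparisons and not over 0.1 in every pair of any comparison. The numbers were therefore not taken to pair samples. Between TFH and non-TFH cells all correlations were positive, 0.045 to 0.205 in WT and 0.087 to 0.163 in S1PR4-/- mice. Samples of different numbers were not compared, so pairing in T cells remains possible. The replicate block gave 35, 32, 24 and 17 calls in WT GC B, S1PR4-/- GC B, WT TFH and S1PR4-/- TFH cells. It gave 21 between GC B and TFH, 18 between non-GC B and non-TFH cells, 1 between TFH genotypes, 0 in the other genotype comparisons, 28 for the lineage interaction, 1 for the genotype interaction of T cells (Ckap4, -2.84) and 0 for that of B cells.

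Of 1786 values of named members under the alternatives, 1702 kept direction and call, 39 lost the call, 20 gained it and 25 changed sign. With the score of 4 markers, sign changed in WT GC B cells for Hspa5 (-0.04), Ern1 (-1.30) and Ckap4 (-0.23). In S1PR4-/- GC B cells it changed for Creld2 (-0.85), Manf (-0.61), Ssr2 (-0.40), Ssr3 (-0.76), Rpn1 (-0.07), Hspa5 (-1.16), Hsp90b1 (-1.65), Ssr4 (-1.44), Ern1 (-2.46) and Ckap4 (-3.35). Without the samples high in markers, Ern1 (-0.43) and Ckap4 (-1.02) changed sign there, as did Sel1l between GC B genotypes (-0.41, and -0.01 to 0.52 with 1 S1PR4-/- or WT sample left out, -0.01 being without S1PR4-/- sample 3) and in the genotype interaction of B cells (-0.31). Atf4 in WT TFH cells changed to -0.05 with the plasma cell score and -0.04 with 4 markers. Ckap4 in S1PR4-/- TFH cells changed to -0.03 with limma voom, -0.51 with the plasma cell score, -0.26 with the B cell score, -0.55 with 4 markers and ran from -0.12 to 0.27 with 1 sample left out, -0.12 being without S1PR4-/- TFH sample 4. The cause of these changes was not tested. In S1PR4-/- GC B cells the highest sample was up to 13.9 times the lowest for a member, which limits the size of genotype difference that could be detected there.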

Other observations

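The 73 other genes of the pathway were also counted by step, and the genes named here were chosen after their values were seen. Of all genes tested, 24.8% rose and 23.1% fell in WT GC B cells. Whether a step differed from these shares was not tested. All 12 plasma cell markers also rose in WT GC B cells (median log2 fold change 4.38), and their part in these counts was not tested. In WT GC B cells 6 of 8 glycosylation genes rose, among them Stt3b (log2 fold change 1.14), a catalytic subunit of the oligosaccharyltransferase. Of the genes for transport out of the ER 8 of 13 rose, with the cargo receptor Lman1 at 1.74 and the KDEL receptor Kdelr2 at 1.65. Folding enzymes rose in 9 of 14 tested genes, with Fkbp11 at 2.28 and Erp44 at 1.67, and signal recognition and insertion genes in 5 of 13. Regulators rose in 5 of 14, with Xbp1, the transcription factor spliced by IRE1, at 2.19. The 2 genes that fell in WT GC B cells were Herpud2 (-0.73) and Ppp1r15a (-1.14).

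The same steps were counted in WT TFH cells, where 22.8% of all genes tested rose and 20.4% fell. Whether a step differed from these shares was again not tested. Plasma cell markers rose there in 9 of 10 tested (median log2 fold change 3.52), and their part was not tested either. Of the glycosylation genes 1 of 8 rose and Stt3b fell (-0.85), and its step differed between lineages by 1.93 (adjusted p = 3.08e-10, edgeR). Transport genes rose in 4 of 13, with Kdelr2 at 1.08, and signal recognition genes in 1 of 13. Regulators rose in 5 of 13 and fell in 2. Xbp1 rose there as well (1.01). The 2 that fell were Ppp1r15a and Trib3 (-1.02), which responds to CHOP.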
